A study of Mus musculus with 34 samples.

Results

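The genes described here are 36 genes of the lysosome, taken by name from a list of acid hydrolases, their activator proteins, lysosomal membrane proteins and the transcription factor Tfeb, out of 54354 genes in the count table. Each of the 36 names occurred once. The samples are mouse organoids from colon tumours, epithelial cultures grown in a gel, each profiled by bulk RNA-seq (34 libraries), and every group, controls included, had a genotype given as AKP. In a CRISPR experiment, ribonucleoprotein editing had produced 2 clones with a knockout of Degs1 (clone1 and clone2, 9 libraries each), which were set against 3 libraries of a Scrambled control. In a hairpin experiment, 3 libraries labelled shYAP were set against 10 shControl libraries. Each knockout group was 1 clone, so an effect of the knockout and a difference between lines cannot be told apart. Nothing in the labels tells separate cultures from repeated libraries of 1 culture, so the p-values measure a spread that may be technical.

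Lysosomes break down macromolecules delivered by endocytosis and autophagy, using hydrolases that work at the acidic pH kept by the vacuolar proton pump. Most of these enzymes reach the lysosome through a mannose 6-phosphate tag, while membrane proteins such as Lamp1 and Lamp2 line and protect its wall. Several of the hydrolases, with the saposins cut from Psap, degrade glycosphingolipids to ceramide, the lipid that the desaturase Degs1 makes by the separate de novo route. TFEB and its relatives switch on lysosomal genes by binding an E-box, CACGTG, within a longer palindrome known as the CLEAR element.

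Some of the 36 genes carry these letters before their start. In the RefSeq promoters of build GRCm38.p6 (mm10), 250 bases before to 50 bases after a gene's start, 34 of the 36 genes had an entry, and CACGTG stood in 12 of them (35.3%), against 8.09% of 27025 genes. The longer palindrome TCACGTGA stood in 5 of the 34 (14.7%, against 1.12% of genes). These motifs read the same on either strand, and each longer one contains the shorter. The 4 stretches printed here lie upstream of the GENCODE gene and belong to genes whose mRNA passed a test below, with the motif in capitals. They come from chr8:13159090-13159160 (plus strand) for Lamp1, chrX:134601184-134601242 (minus strand) for Gla, chr9:114401020-114401045 (plus strand) for Glb1 and chr7:142388057-142388077 (minus strand) for Ctsd. Lamp1 held 4 copies of CACGTG within 71 bases, and Gla 2 copies of TCACGTGA within 59.
Lamp1: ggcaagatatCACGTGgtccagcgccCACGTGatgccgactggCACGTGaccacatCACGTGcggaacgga
Gla: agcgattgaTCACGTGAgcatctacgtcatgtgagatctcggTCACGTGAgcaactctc
Glb1: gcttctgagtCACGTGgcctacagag
Ctsd: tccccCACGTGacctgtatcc
The other genes with CACGTG were Arsa, Cln3, Ctsa, Ctsl, Gaa, Mcoln1, Naglu and Sgsh. A match describes letters in a window and is not a measured binding site.

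Library totals ran from 883253 counts (clone1 replicate 2) to 6597099. Levels are given in CPM, counts scaled to a common library total, with the SD. The targeted gene Degs1 had a mean level of 7.72 ± 2.62 CPM in Scrambled (n = 3), of 2.41 ± 1.32 in clone1 (n = 9, log2 change -1.57 ± 0.43, edgeR adjusted p = 0.0117) and of 1.71 ± 0.892 in clone2 (n = 9, -2.15 ± 0.43, adjusted p = 1.56e-04). Yap1 had a mean level of 16.5 ± 4.13 CPM in shControl (n = 10) against 19.04 ± 1.12 under the label shYAP (n = 3, 0.20 ± 0.23, edgeR adjusted p = 0.619). Since Yap1 mRNA was not lower there, directions drawn from that label concern the libraries as labelled. The 7 epithelial markers checked summed to between 1653 and 3351 CPM in every library. Against Scrambled, 3 of them were higher and 0 lower in clone1 (median 0.12), and 1 was higher and 4 lower in clone2 (median -0.46), with 5 lower in clone2 than in clone1. The 6 fibroblast markers summed to at most 1.18 CPM. Of the macrophage and other leukocyte markers, cells that are rich in lysosomes, Lyz2 and Tyrobp were at 0 in every Scrambled, clone1, clone2 and shYAP library. The 9 genes of that list summed to between 44.6 and 116 CPM, most of it from Cd14 and Cd68. Their sums ran from 68.1 to 90.3 CPM in Scrambled, 61.9 to 84.8 in clone1 and 85.9 to 116 in clone2. In the hairpin experiment they ran from 44.6 to 97.2 in shControl and from 68.1 to 93.1 in shYAP. Of the 2 of them high enough to test, 1 was higher (0.80) and 1 lower (-0.55) in clone2, and 0 passed in clone1. In shYAP 1 was lower (-0.996) and the other did not pass. The 9 absorptive colonocyte markers summed to 266 to 293 CPM in Scrambled, 842 to 1991 in clone1, 162 to 577 in clone2, 202 to 570 in shControl and 417 to 463 in shYAP. Of the 5 of them high enough to test, 4 were higher and 0 lower in clone1 (median 1.95), 1 was higher and 4 lower in clone2 (median -2.36, from -3.37 to 1.42), and 0 passed in shYAP. The part of these epithelial, leukocyte and colonocyte markers in the results below was not tested. In such bulk libraries, fewer cells of a type and less RNA per cell cannot be told apart.

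The 36 genes did not move as one block in either clone. A gene passed when its edgeR quasi-likelihood p, adjusted over all genes tested, was under 0.05, and each change is given on the log2 scale ± its SE. In clone1, 5 of the 36 were higher than in Scrambled and 3 were lower, or 22.2%, where 12.7% of all 11514 genes tested passed (5.96% higher and 6.71% lower). In clone2, 10 were higher and 6 were lower, or 44.4%, where 33.1% of all genes passed (16.5% higher and 16.6% lower). The median change over the 36 was 0.26 in clone1 and 0.06 in clone2, against 0.03 and -0.03 over all genes tested. Both comparisons used the same 3 Scrambled libraries. Passed in both were Ctsd and Grn, higher in each clone, Ctsz, lower in each, and Cd63, with opposite signs. Set directly against clone1, clone2 had 7 of the 36 higher and 12 lower (52.8%, against 49.1% of all genes, 23.6% higher and 25.5% lower).

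**Figure D1:**
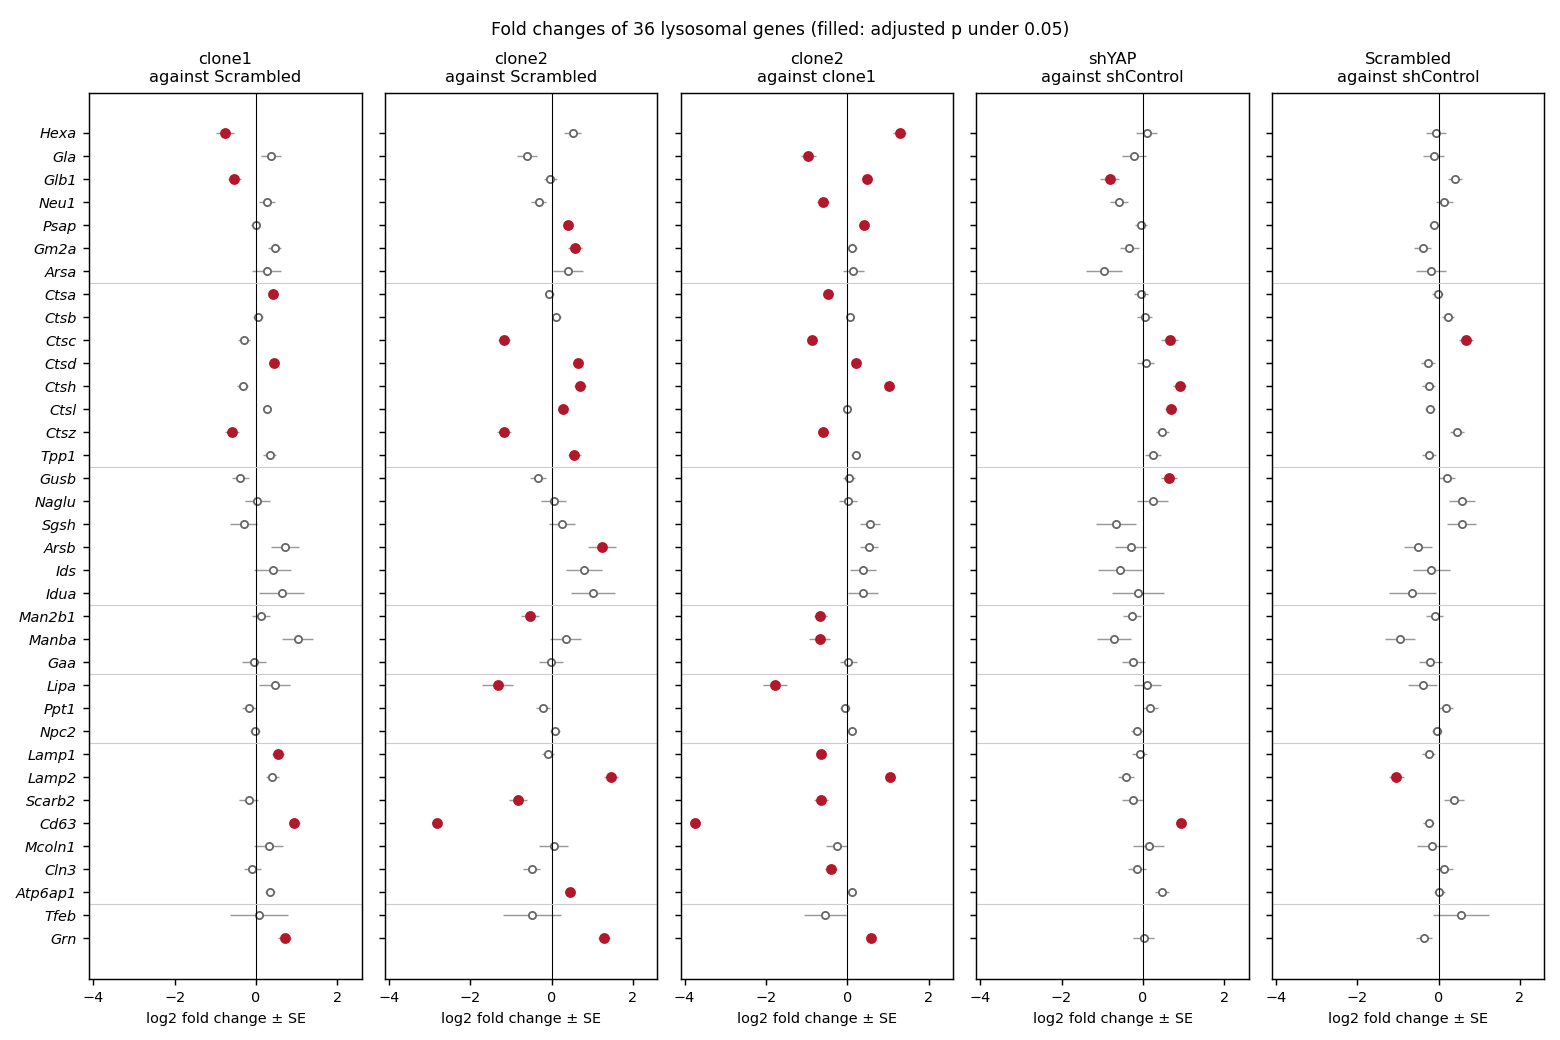
Log2 fold changes with their standard error (horizontal axis) of the 36 lysosomal genes (vertical axis, grouped by role) in the 5 comparisons. Filled points passed the edgeR test at an adjusted p under 0.05. Cd63 lies at 0.94 in clone1, -2.82 in clone2 and 0.93 in the libraries labelled shYAP, while most other genes lie within 1 of 0.

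In the libraries labelled shYAP, 5 of the 35 tested genes were higher than in shControl and 1 was lower, or 17.1%, where 11.4% of 11094 genes passed (5.47% higher and 5.9% lower). Their median was -0.05, the same as the -0.05 over all genes tested. The controls of both experiments were also compared, in a fit of all 34 libraries. Scrambled had 1 of the 36 genes higher and 1 lower than shControl, or 5.56%, where 2.95% of 11960 genes passed (1.76% higher and 1.19% lower). With shControl in place of Scrambled, 8 of the 36 passed in clone1 (20.9% of all genes did) and 20 in clone2 (38.5% of all genes did). The share of all genes that passed at least once across these 5 comparisons was not counted, and 49.1% passed in clone2 against clone1 alone. Of the 36 genes, 25 passed at least once. The other 11 never did: the cathepsin Ctsb, the cholesterol carrier Npc2, the thioesterase Ppt1, the sulfatase Arsa, the glycogen-degrading glucosidase Gaa, the calcium channel Mcoln1, Tfeb, and the glycosaminoglycan enzymes Ids, Idua, Naglu and Sgsh. Of these 11, Ctsb, Naglu and Sgsh were higher in clone2 against shControl, by 0.35 ± 0.10, 0.63 ± 0.24 and 0.84 ± 0.26.

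Tfeb (ENSMUSG00000023990, chromosome 17, 47737030 to 47792419, mm10) encodes the master regulator of lysosomal genes, whose activity is set largely by its place in the cell and not by its mRNA. Its mRNA was close to the detection floor, with 0 to 16 counts per library and 0 counts in 4 libraries. The 3 Scrambled libraries had 2.31, 2.01 and 0.203 CPM, clone1 ran from 0 to 2.87 with a median of 1.19, and clone2 from 0 to 2.36 with a median of 1.10. The ranges overlapped. The 95% confidence interval of the change ran from -1.35 to 1.49 in clone1 and from -1.91 to 0.95 in clone2, wide beside most changes described here, so smaller changes of this mRNA were not detectable at this depth. In the hairpin fit Tfeb fell below the filter on low counts and was not tested, with 3.83, 3.31 and 1.54 CPM in the shYAP libraries and 0 to 1.75 in shControl.

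**Figure D2:**
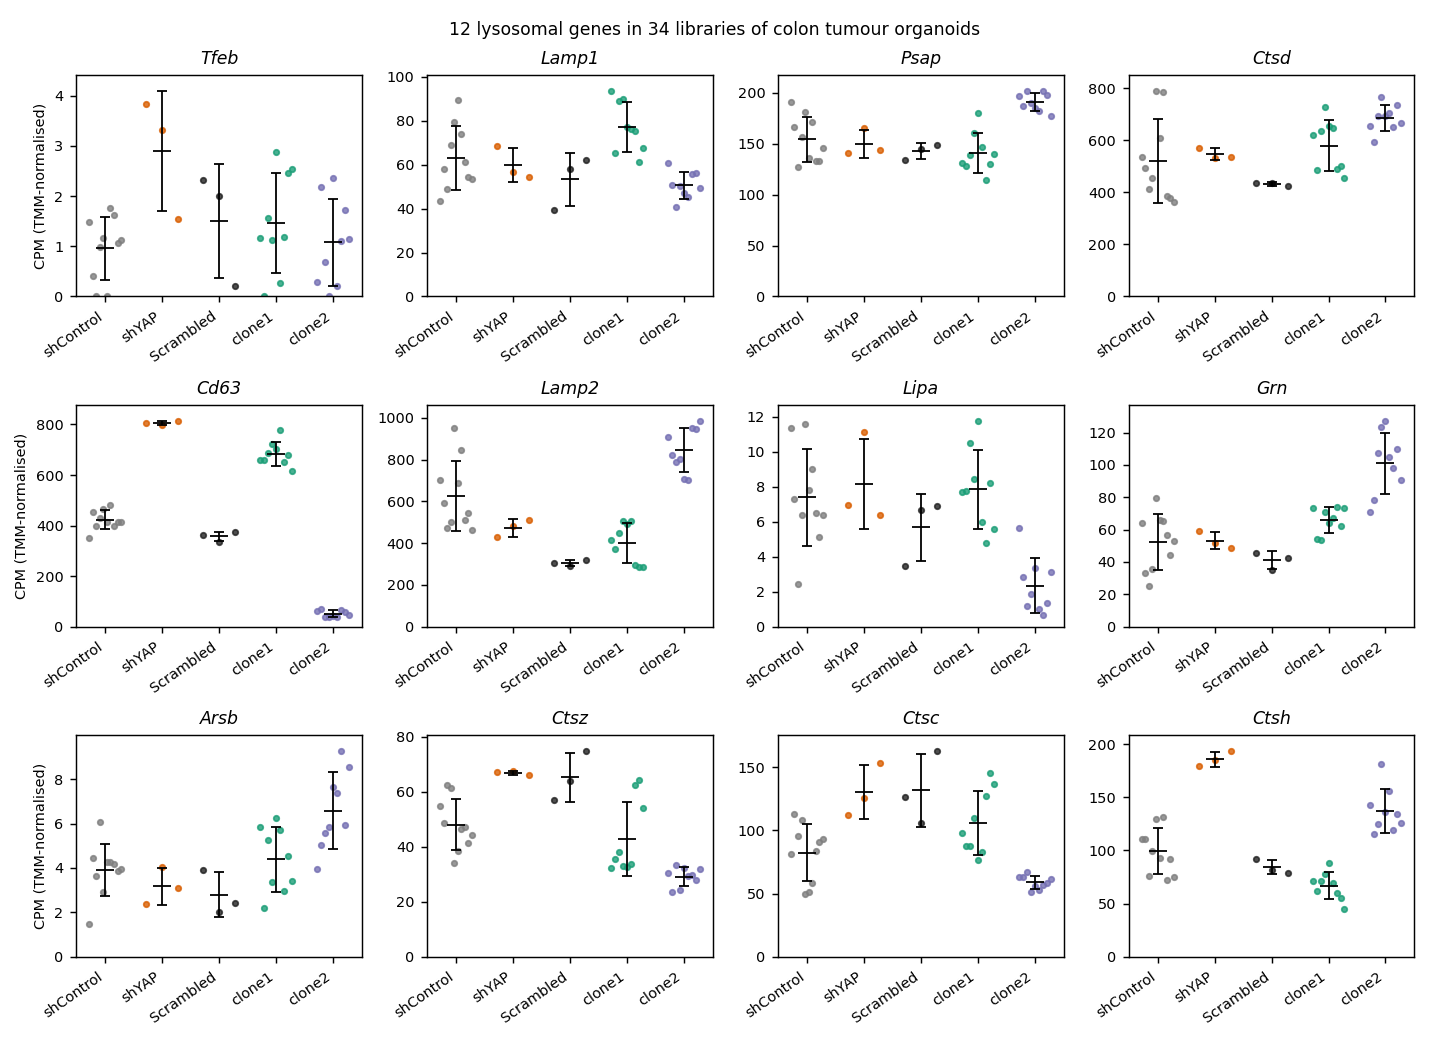
Level of 12 lysosomal genes (vertical axis, TMM-normalised CPM) in each library, by group, with points in order of replicate number from left to right and the mean ± SD as bars. All 9 clone2 libraries lie below all other libraries in Cd63, and above all Scrambled libraries in Lamp2, Grn, Ctsd, Psap, Ctsh and Arsb.

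Among the 7 genes of sphingolipid breakdown, 2 were higher in clone2 and 0 lower, while 0 were higher in clone1 and 2 lower. That is 28.6% of the 7 in each clone, where 33.1% of all genes passed in clone2 and 12.7% in clone1. Psap (ENSMUSG00000004207, chromosome 10, 60277627 to 60302597) encodes prosaposin, the precursor of the saposins that lift sphingolipids out of membranes for their hydrolases. Psap stood at 134, 144 and 149 CPM in the Scrambled libraries, at 114 to 180 (median 139) in clone1 and at 177 to 202 (median 189.7) in clone2. Every clone2 library was above every Scrambled library, and clone1 spanned them. Psap rose by 0.40 ± 0.11 in clone2 (edgeR adjusted p = 0.00406), and the clone1 interval ran from -0.23 to 0.21. Against shControl in place of Scrambled, Psap in clone2 was also higher, by 0.31 ± 0.08 (adjusted p = 0.0034).

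Gm2a, an activator protein of ganglioside breakdown, rose in clone2 (0.58 ± 0.17, adjusted p = 0.00714), but not against shControl (0.20, adjusted p = 0.262). Its clone1 value against Scrambled was 0.45 ± 0.17 and did not pass (adjusted p = 0.06985). Hexa, a hexosaminidase subunit that acts on gangliosides, fell in clone1 by 0.77 ± 0.21 on the log2 scale (adjusted p = 0.0132), from 22.3 ± 4.91 CPM (n = 3) to 12.7 ± 4.35 (n = 9). That call was lost in 5 of 14 alternative settings, among them leaving out Scrambled replicate 1 or replicate 2. In clone2 it averaged 32.3 ± 6.18 CPM, and each of its libraries was above each clone1 library. Glb1, the lysosomal beta-galactosidase, was lower in clone1 (-0.53 ± 0.16, adjusted p = 0.0193) and in the libraries labelled shYAP (-0.82 ± 0.23, adjusted p = 0.0234). Its clone1 value was -0.14 against shControl and did not pass (adjusted p = 0.499), and its shYAP call was lost on leaving out any 1 shYAP library. Among the 5 comparisons, Gla, the alpha-galactosidase that cleaves globosides, and the sialidase Neu1 passed only between the clones, where clone2 was lower by 0.96 ± 0.18 and 0.60 ± 0.14 respectively on the log2 scale. The Neu1 call was kept in 9 of 10 alternative settings and lost with knockout replicates 7 to 9 alone.

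Of 8 proteases, 4 were higher and 2 lower in clone2, 2 were higher and 1 lower in clone1, and 3 were higher and 0 lower in the libraries labelled shYAP (75%, 37.5% and 37.5% of the 8). Over all genes tested, 33.1% passed in clone2, 12.7% in clone1 and 11.4% in shYAP. Ctsd (ENSMUSG00000007891, chromosome 7, 142375911 to 142388038), the main aspartic protease of the lysosome, had 438, 434 and 423 CPM in the Scrambled libraries. It ran from 456 to 728 CPM (median 619) in clone1 and from 595 to 767 (median 692) in clone2, and neither clone overlapped Scrambled. Ctsd rose by 0.43 ± 0.12 in clone1 (adjusted p = 0.00993) and by 0.65 ± 0.12 in clone2 (adjusted p = 3.94e-05). The shControl libraries ran from 364 to 789 CPM and overlapped all other groups. Against them Ctsd in clone2 still passed (0.40 ± 0.12, adjusted p = 0.00599), while in clone1 it did not (0.16, adjusted p = 0.385).

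The clone1 libraries differed among themselves in Ctsd: replicates 1 to 6 had a mean of 628 CPM and replicates 7 to 9 one of 483 CPM, where the change against Scrambled was 0.15 and did not pass (adjusted p = 0.178). Ctsz (ENSMUSG00000016256, chromosome 2, 174427493 to 174439039), a carboxypeptidase, showed the same split with a larger difference. It stood at 57.1, 63.9 and 74.6 CPM in Scrambled, at 32.2 to 37.96 in clone1 replicates 1 to 6, and at 53.9 to 64.4 in clone1 replicates 7 to 9. The last 3 overlapped Scrambled. Over all 9 libraries Ctsz fell in clone1 by 0.59 ± 0.18 on the log2 scale (adjusted p = 0.0226), and with replicates 7 to 9 alone the value was -0.13 (adjusted p = 0.562). In clone2 Ctsz ranged from 23.6 to 33.3 CPM (median 29.7), below every Scrambled library, and fell by 1.18 ± 0.17 (adjusted p = 1.68e-06).

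Ctsc (ENSMUSG00000030560, chromosome 7, 88278085 to 88310888), the dipeptidyl peptidase that activates serine proteases of immune cells, had 127, 106 and 162 CPM in Scrambled. It ran from 51.4 to 67.3 CPM (median 58.1) in clone2, below all Scrambled libraries, and fell by 1.18 ± 0.15 on the log2 scale (adjusted p = 6.08e-08). In clone1 it ran from 76.4 to 145 CPM (median 98.2) and did not pass against Scrambled. Scrambled itself was higher in Ctsc than shControl, by 0.67 ± 0.18 (adjusted p = 0.0299). Against shControl, clone2 was lower by a smaller amount (-0.49 ± 0.14, adjusted p = 0.0037) and clone1 was higher (0.36 ± 0.13, adjusted p = 0.0465).

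Ctsh (ENSMUSG00000032359, chromosome 9, 90054152 to 90076089), an aminopeptidase, had 91.9, 81.7 and 79.1 CPM in Scrambled and 116 to 181 (median 134) in clone2, without overlap. It rose in clone2 by 0.69 ± 0.15 (adjusted p = 3.65e-04). The libraries labelled shYAP had 179, 185 and 193 CPM, all above the shControl range of 72.4 to 132 (median 96.2). Their rise was 0.90 ± 0.17 (adjusted p = 0.00144). In clone1 Ctsh ran from 45.3 to 88.5 CPM (median 69.7), overlapping Scrambled. The direct comparison put clone2 1.02 ± 0.10 above clone1 (adjusted p = 1.79e-10).

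Ctsl, a broad cysteine endopeptidase, rose by 0.68 ± 0.14 in the libraries labelled shYAP (adjusted p = 0.00333), from 268 ± 42.8 CPM (n = 10) to 431 ± 29.7 (n = 3), and by 0.27 ± 0.11 in clone2 (adjusted p = 0.0487). The clone2 call sat at the threshold and was kept in 3 of 13 alternative settings. In clone1 Ctsl was at 0.27 ± 0.11 and did not pass (adjusted p = 0.0937). Ctsc was also higher in shYAP (0.65 ± 0.21, adjusted p = 0.0477), and lost that call on leaving out any 1 shYAP library. Ctsa, which protects Neu1 and Glb1 in a shared complex, rose in clone1 (0.42 ± 0.11, adjusted p = 0.0115) and did not pass in clone2 or shYAP. Its clone1 call was lost in 5 of 14 alternative settings, among them leaving out Scrambled replicate 1 or replicate 2. In Ctsa, clone2 was lower than clone1 by 0.47 ± 0.08 on the log2 scale (adjusted p = 5.56e-06). Tpp1, a tripeptidyl peptidase lost in a childhood neuronal storage disease, rose in clone2 (0.55 ± 0.16, adjusted p = 0.00685), a call kept in 10 of 13 alternative settings. The Tpp1 call was lost without Scrambled replicate 2, and with the replicate number or the run of neighbouring libraries as a block.

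Of 6 enzymes of glycosaminoglycan breakdown, 1 passed in clone2 (16.7%, under the 33.1% of all genes) and 0 in clone1 (against 12.7%). In the libraries labelled shYAP 1 passed (16.7%, against 11.4% of all genes). Arsb (ENSMUSG00000042082, chromosome 13, 93771630 to 93943016), a sulfatase of dermatan sulfate, had 3.93, 2.01 and 2.43 CPM in Scrambled and 3.96 to 9.25 (median 5.94) in clone2. The highest Scrambled library lay just under the lowest of clone2. Arsb rose by 1.24 ± 0.34 (adjusted p = 0.00472) from these low levels, and without Scrambled replicate 2 the call was lost (adjusted p = 0.0531, the highest over the alternatives, which went down to 0.00114). The Arsb call was also lost with the replicate number or the run of neighbouring libraries as a block. Gusb, the beta-glucuronidase, was higher in shYAP (0.64 ± 0.20, adjusted p = 0.0427), a call lost without any 1 of the 3 shYAP libraries. Of 3 enzymes of glycoprotein and glycogen breakdown, the mannosidase Man2b1 passed as lower in clone2 (-0.54 ± 0.21, adjusted p = 0.0495) and kept the call in 3 of 13 alternative settings. That is 33.3% of the 3, near the 33.1% of all genes. The beta-mannosidase Manba passed only between the clones, lower in clone2 (-0.68 ± 0.25, adjusted p = 0.0246), and kept the call in 6 of 10 alternative settings.

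Lipa (ENSMUSG00000024781, chromosome 19, 34492318 to 34527474) encodes lysosomal acid lipase, which frees cholesterol and fatty acids from their esters. Scrambled had 3.46, 6.64 and 6.90 CPM, clone1 4.76 to 11.7 (median 7.74) and clone2 0.661 to 5.65 (median 1.88). Most clone2 libraries were below Scrambled, with overlap at the upper end. Lipa fell in clone2 by 1.33 ± 0.38 on the log2 scale (adjusted p = 0.00652) and lay 1.78 ± 0.29 below clone1 (adjusted p = 3.66e-06). Without Scrambled replicate 2 the first call was lost (adjusted p = 0.0538, with a range over the alternatives of 3.15e-06 to 0.0679). That call was also lost with the replicate number or the run of neighbouring libraries as a block. Against shControl, clone2 was lower by 1.70 ± 0.28 (adjusted p = 3.15e-06). The 2 other genes of lipid handling, Npc2 and Ppt1, had clone2 intervals from -0.16 to 0.32 and from -0.57 to 0.12.

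Of 7 membrane proteins, 2 rose and 2 fell in clone2, 2 rose in clone1, and 1 rose in the libraries labelled shYAP (57.1%, 28.6% and 14.3% of the 7). Among all genes tested, 33.1%, 12.7% and 11.4% passed in the same comparisons. Cd63 (ENSMUSG00000025351, chromosome 10, 128900989 to 128912822) encodes a tetraspanin of late endosomes, lysosomes and exosomes. The Scrambled libraries had 363, 336 and 373 CPM of Cd63, clone1 had 616 to 779 (median 678) and clone2 had 39.2 to 70.8 (median 46.5). No 2 of these groups overlapped. Cd63 rose by 0.94 ± 0.14 in clone1 (adjusted p = 1.09e-05) and fell by 2.82 ± 0.12 in clone2 (adjusted p = 2.38e-19), a difference of -3.76 ± 0.11 between the clones. The shControl libraries, at 352 to 482 CPM (median 415), overlapped Scrambled. In shYAP it stood at 807, 798 and 812 CPM, above all shControl libraries, a rise of 0.93 ± 0.11 (adjusted p = 1.50e-05). Cd63 passed in the same direction under every alternative setting of these 4 comparisons, with clone1 values from 0.69 to 1.02 and clone2 values from -3.04 to -2.68.

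Lamp1 (ENSMUSG00000031447, chromosome 8, 13159161 to 13175338) and Lamp2 (ENSMUSG00000016534, chromosome X, 38401357 to 38456454) encode the most abundant glycoproteins of the lysosomal membrane, and Lamp2 also takes part in chaperone-mediated autophagy and in fusion with autophagosomes. Lamp2 had 305, 291 and 318 CPM in Scrambled and 704 to 985 (median 820.5) in clone2, with no overlap, and rose by 1.45 ± 0.17 (adjusted p = 1.03e-07). The control used set the size of that rise. In shControl, Lamp2 ran from 465 to 952 CPM (median 568.4), all above Scrambled, and Scrambled was lower than shControl by 1.04 ± 0.19 on the log2 scale (adjusted p = 9.82e-04). Against shControl the rise in clone2 was 0.43 ± 0.12 (adjusted p = 0.00568).

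In clone1, Lamp2 ran from 286 to 506 CPM (median 414), with replicates 1 to 6 all above Scrambled and replicates 7 to 9, at 286 to 295, overlapping or below it. Its change against Scrambled did not pass, and it was lower than shControl (-0.65 ± 0.13, adjusted p = 1.88e-04). Lamp1 had 39.5, 58.1 and 62.3 CPM in Scrambled, 61.3 to 93.6 (median 76.2) in clone1 and 40.7 to 60.8 (median 50.3) in clone2. It rose in clone1 by 0.54 ± 0.15 (adjusted p = 0.0111), a call kept in 10 of 14 alternative settings. The call was lost without Scrambled replicate 1, the lowest of the 3, and with clone1 replicates 7 to 9 alone (0.33, adjusted p = 0.0925). Against shControl, Lamp1 in clone1 was at 0.29 ± 0.11 and did not pass (adjusted p = 0.0584). In clone2 it was lower than in shControl (-0.32 ± 0.11, adjusted p = 0.0241). Clone2 was lower in Lamp1 than clone1 by 0.64 ± 0.10 (adjusted p = 2.76e-06), without overlap of their libraries.

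Scarb2, a membrane protein that also serves as a receptor for enzyme transport to the lysosome, fell in clone2 by 0.83 ± 0.23 on the log2 scale (adjusted p = 0.00465), from 19.5 ± 0.964 CPM (n = 3) to 11.2 ± 3.27 (n = 9). Against shControl it was -0.43 and did not pass (adjusted p = 0.052). The Scarb2 call was also lost with the replicate number or the run of neighbouring libraries as a block. Atp6ap1, an accessory subunit of the proton pump, rose in clone2 (0.45 ± 0.12, adjusted p = 0.00325), and passed under all 13 alternative settings. Its clone1 value was 0.34 ± 0.12 and did not pass (adjusted p = 0.0587), but against shControl clone1 did (0.35 ± 0.10, adjusted p = 0.00662). The membrane protein Cln3 passed only between the clones, lower in clone2 (-0.40 ± 0.16, adjusted p = 0.0333). It kept that call in 7 of 10 alternative settings, with adjusted p up to 0.746. For the calcium channel Mcoln1 the intervals ran from -0.41 to 1.04 in clone1 and from -0.67 to 0.77 in clone2.

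Grn (ENSMUSG00000034708, chromosome 11, 102430315 to 102437048) encodes progranulin, a secreted protein that is cut into granulins in the lysosome. It had 45.7, 35.1 and 42.4 CPM in Scrambled, 53.7 to 74.0 (median 67.3) in clone1 and 70.6 to 127 (median 105) in clone2. Both clones lay wholly above Scrambled. Grn rose by 0.70 ± 0.15 in clone1 (adjusted p = 0.00143) and by 1.29 ± 0.16 in clone2 (adjusted p = 3.33e-08), and clone2 exceeded clone1 by 0.59 ± 0.10 (adjusted p = 9.69e-06). The shControl libraries ran from 24.9 to 79.3 CPM and overlapped clone1, which did not pass against them (0.33, adjusted p = 0.0856), while clone2 did (0.94 ± 0.14, adjusted p = 4.78e-07).

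A score for the whole group, the mean over the 36 genes of log2 CPM after centring each gene on the mean of the 5 group means, differed little between groups. In the hairpin experiment it was -0.03 ± 0.15 (SD, n = 10) for shControl and 0.04 ± 0.09 (n = 3) for shYAP. Scrambled had a score of -0.05 ± 0.03 (n = 3), clone1 of 0.06 ± 0.16 (n = 9) and clone2 of -0.03 ± 0.07 (n = 9). No test was made of it. The lowest scores belonged to shControl replicate 3 (-0.345) and clone1 replicate 2 (-0.301), the 2 libraries with the fewest counts. Without them shControl averaged 0.01 ± 0.11 and clone1 0.11 ± 0.08, and the lowest of the other 8 clone1 libraries (-0.03) lay within the Scrambled range of -0.08 to -0.01. Taking the median gene in place of the mean gave 0.11 in clone2, and the mean without Cd63 gave 0.04.

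**Figure D3:**
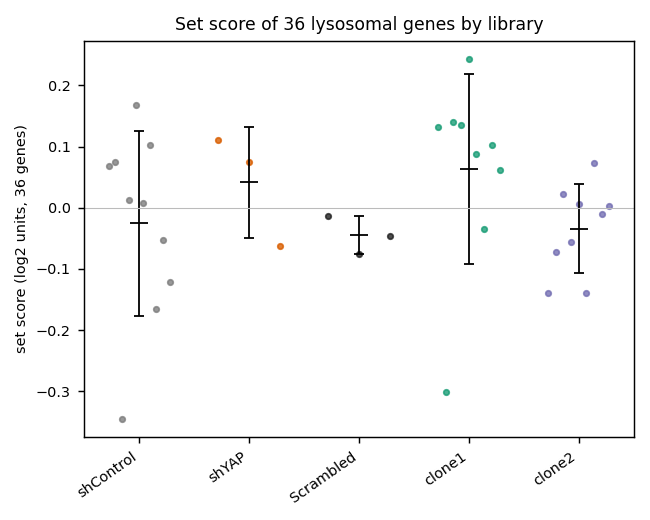
Mean centred log2 CPM over the 36 lysosomal genes (vertical axis) in each library by group, with the mean ± SD as bars. The groups overlap, with means between -0.05 and 0.06, and the 2 lowest points are the 2 libraries with the fewest counts.

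Scores by role did separate some groups. For the 8 proteases the shYAP libraries lay between 0.23 and 0.35, above the shControl libraries at -0.39 to 0.09. For the 7 membrane proteins clone2 lay between -0.54 and -0.18, below Scrambled at -0.12 to -0.04. That order rests on Cd63: over the other 6, clone2 ran from -0.14 to 0.18 and Scrambled from -0.16 to -0.05, with means of 0.00 and -0.09. For the 3 genes of other lipid handling, clone2 averaged -0.42 ± 0.26 and overlapped Scrambled. These are descriptions, made on genes whose single values are given above.

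Genes with a CACGTG in the promoter were not all alike in direction. In clone1, 3 of the 12 were higher and 1 lower, and of the 22 with a promoter entry and no such motif 2 were higher and 2 lower. In clone2, 2 of the 12 were higher (Ctsd and Ctsl) and 0 lower, and of the 22 others 7 were higher and 6 lower. The Ctsl call was kept in 3 of 13 alternative settings. Over all genes tested, 12.7% passed in clone1 and 33.1% in clone2. Genes with and without the motif were not compared by a test. The median change in clone2 was 0.01 with the motif and 0.21 without it, and in clone1 0.26 and 0.30. Lamp1, with the 4 copies printed above, rose in clone1 and did not pass in clone2, both against Scrambled.

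Other genes of the lysosome were counted from 6 lists of 101 genes outside the 36. Of 15 tested subunits of the vacuolar proton pump, 8 were higher and 1 lower in clone2 (60%, where 33.1% of all genes passed), with a list median of 0.31 against -0.03 over all genes, and 3 were higher and 0 lower in clone1 (20%, where 12.7% of all genes passed, median 0.13). Atp6v1h (0.92 ± 0.15) and Atp6v0e (0.87 ± 0.12) rose most in clone2, and the membrane subunit Atp6v0a2 fell (-0.97 ± 0.22). The clone2 count was 7 to 10 higher and 1 lower under all alternative settings, and 8 and 1 against shControl, but in clone1 it was 0 higher when the run of neighbouring libraries was a random block. In the libraries labelled shYAP 3 were higher and 0 lower (20%, where 11.4% of all genes passed), and 1 was higher on leaving out any 1 of them. The 3 were Atp6v0c at 0.61 ± 0.11, Atp6v0b at 0.47 ± 0.13 and Atp6v0e at 0.40 ± 0.12. In clone1 the 3 were Atp6v1a (0.48 ± 0.12), Atp6v1d (0.45 ± 0.12) and Atp6v0e (0.44 ± 0.12). Against shControl, clone1 had 4 subunits higher and 2 lower, Atp6v1g1 (-0.34 ± 0.12) and Atp6v1h (-0.38 ± 0.11), and Atp6v1d (0.17) and Atp6v0e (0.08) did not pass.

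**Figure D4:**
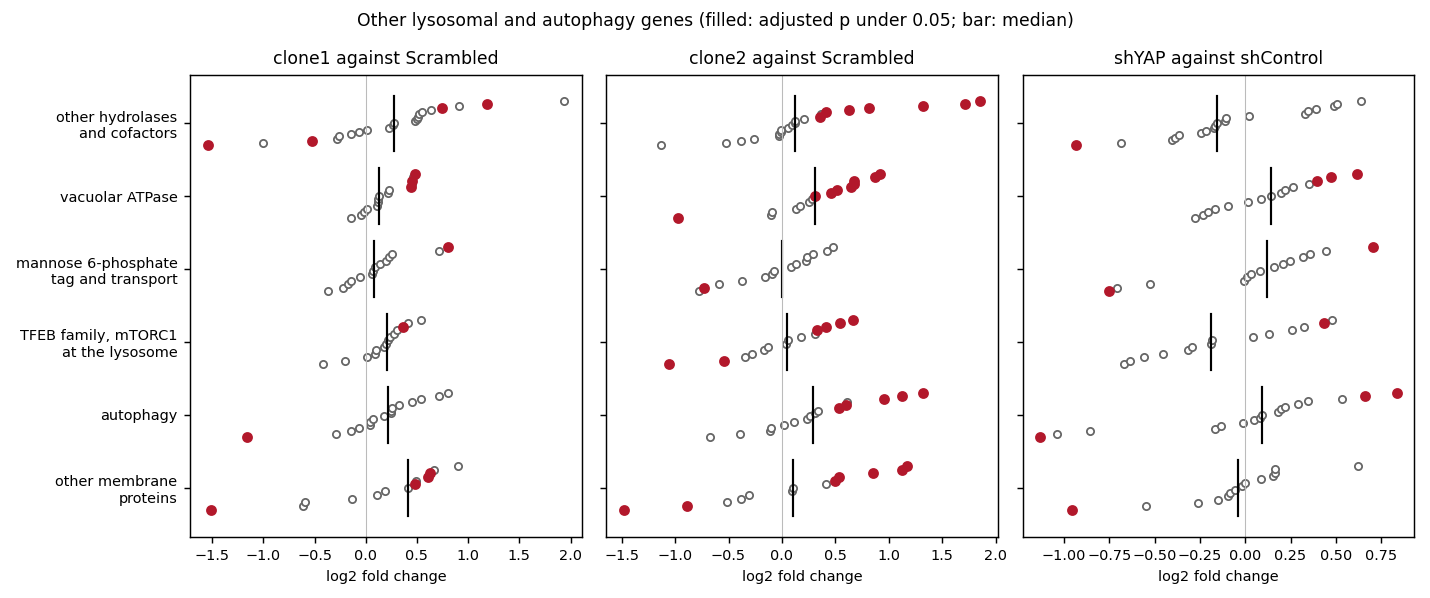
Log2 fold changes (horizontal axis) of the genes of 6 other lysosomal and autophagy lists (rows) in clone1, clone2 and the libraries labelled shYAP. Each point is a gene, filled points passed the edgeR test at an adjusted p under 0.05, and bars are list medians. The vacuolar ATPase row has 8 of 15 genes filled above 0 and 1 below in clone2.

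Of 21 other hydrolases and cofactors tested, 7 were higher and 0 lower in clone2 (33.3%, near the 33.1% of all genes, median 0.12), among them Aga, which cleaves sugars from asparagine (1.86 ± 0.25). With the run of neighbouring libraries as a random block 3 were higher. In clone1, 2 were higher and 2 lower (19%, where 12.7% of all genes passed, median 0.28), with Aga at 1.19 ± 0.25 and the fucosidase Fuca1 at -0.52 ± 0.13. Aga was lower in Scrambled than in shControl (-1.62 ± 0.29), and against shControl its values were 0.26 in clone2 and -0.44 in clone1, neither past the threshold. Fuca1 in clone1 did not pass against shControl either (-0.17). In shYAP 0 of 19 were higher and 1 was lower (5.26%, under the 11.4% of all genes, median -0.16).

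Of 16 autophagy genes tested in the knockout fit, 5 were higher and 0 lower in clone2 (31.2%, under the 33.1% of all genes, median 0.29), with the kinase Ulk1 at 1.32 ± 0.33 and the ubiquitin-like proteins Map1lc3a at 1.12 ± 0.26 and Gabarap at 0.96 ± 0.14. Against shControl 4 of 17 were higher and 3 lower, where 38.5% of all genes passed, and Ulk1 did not pass (0.45). In clone1, 1 was lower (6.25%, under the 12.7% of all genes, median 0.21), the receptor Optn (-1.16 ± 0.20). In shYAP, 2 of 17 were higher and 1 lower (17.6%, where 11.4% of all genes passed). These were Ulk1 at -1.13 ± 0.31, Optn at 0.83 ± 0.19 and Becn1 at 0.66 ± 0.21.

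Among 13 other membrane proteins and transporters tested, 5 were higher and 2 lower in clone2 (53.8%, where 33.1% of all genes passed, median 0.10). In clone1 3 were higher and 1 lower (30.8%, where 12.7% of all genes passed, median 0.42). The sialic acid exporter Slc17a5 fell in both clones (-1.48 ± 0.27 in clone2 and -1.51 ± 0.27 in clone1). The cystine exporter Ctns (1.17 ± 0.28) and the tetraspanin Cd9 (1.12 ± 0.13), a relative of Cd63, rose in clone2. In clone1 the cholesterol exporter Npc1 was at 0.63 ± 0.17 and the tetraspanin Cd82 at 0.60 ± 0.14. In shYAP 1 of 14 passed (7.14%, under the 11.4% of all genes), Npc1, which was lower (-0.96 ± 0.21).

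Of 14 genes of the TFEB family and of mTORC1 at the lysosome, 4 were higher and 2 lower in clone2. That is 42.9%, where 33.1% of all genes passed, with a median of 0.05. The folliculin partner Fnip1 was at -1.06 ± 0.25, and the Ragulator subunits were at 0.67 ± 0.13 (Lamtor4) and 0.55 ± 0.12 (Lamtor2). In clone1, 1 was higher (7.14%, under the 12.7% of all genes, median 0.21), Lamtor2 (0.37 ± 0.12), which did not pass against shControl (0.12). In shYAP 1 was higher (7.14%, under the 11.4% of all genes), Lamtor1 (0.43 ± 0.14). Of 14 genes of the mannose 6-phosphate tag and transport, 1 was higher in clone1, the tag receptor Igf2r (0.80 ± 0.19), and 1 was lower in clone2, the adaptor subunit Ap1m1 (-0.73 ± 0.23). In shYAP, Igf2r was lower (-0.75 ± 0.23) and Ap1m1 higher (0.71 ± 0.22). The share that passed was 7.14% in each clone, under the 12.7% of all genes in clone1 and the 33.1% in clone2. In shYAP the share was 14.3%, where 11.4% of all genes passed. The list medians were 0.08 in clone1 and 0.00 in clone2. Igf2r was also lower in Scrambled than in shControl (-0.80 ± 0.21), and against shControl its clone1 value was -0.01. The clone2 value of Ap1m1 against shControl was -0.23 and did not pass.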

How the data were processed

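RNA was extracted from organoids, selected for poly(A) and made into strand-specific libraries, per the labels' protocols. The authors deposited a table of expected counts per gene, for which the submitters' processing notes name Salmon 1.3.0 and the build mm10. All values were whole numbers and were used as deposited. How transcripts were summed to genes is not given in the sources used here, and counts are not scaled by gene length, so levels are compared only within a gene. The table held 54354 genes in 34 library columns, and 210 further columns without a name were empty and unused. Gene positions come from GENCODE M21 and promoters from RefSeq.

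Low genes were removed by filterByExpr (at least 10 counts in enough libraries and 15 in total), and the rest were scaled by TMM. Tests were two-sided quasi-likelihood tests with robust fitting (edgeR 4.0.16, R 4.3.3), with p adjusted over all genes by Benjamini-Hochberg and called under 0.05. Clones and Scrambled (21 libraries) were fitted together, and shYAP and shControl (13 libraries) in a fit of their own. All 36 genes passed the filter in the first and 35 in the second. Levels are CPM computed here with TMM factors over all 34 libraries, and the score used log2 CPM with a prior count of 2. Standard errors and 95% intervals cover the fitted spread between libraries. The steps were tested on simulated data.

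The 36 genes, the other lists and the rules were chosen with earlier results of these data known. Every gene of the 36 that passed in any comparison was named with its fold change. Values per library were given for Tfeb, Lamp1, Psap, Ctsd and the 8 that passed with the largest changes against a control in clone1, clone2 or shYAP, and up to 3 genes were named from each other list, some of which are not reported here. Runs of neighbouring libraries (in clone1, replicates 1 to 6 and then 7 to 9; in clone2, breaks after replicates 2 and 6; in shControl, after 4 and 7) came from an earlier analysis and not from the labels, which name no batch. Alternatives were other size factors, no filter, DESeq2 1.42.0, limma 3.58.1, also with the run as its random block, the replicate number as a block, subsets of libraries and, chosen after seeing the data, shControl in place of Scrambled and scores without Cd63.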

Additional observations from a re-analysis of the deposited data

Results flagged for a closer look

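The clones differed in 19 of the 36 genes by the direct edgeR test of clone2 against clone1. That is 52.8%, near the 49.1% of all genes that passed. It is the test of the difference between their effects, since both share Scrambled. Higher in clone2 were Hexa (1.28), Lamp2 (1.06), Ctsh (1.02), Grn (0.59), Glb1 (0.49), Psap (0.41) and Ctsd (0.22), all as log2 differences. Lower in clone2 were Cd63 (-3.76), Lipa (-1.78), Gla (-0.96), Ctsc (-0.88), Manba (-0.68), Man2b1 (-0.66), Scarb2 (-0.64), Lamp1 (-0.64), Neu1 (-0.60), Ctsz (-0.59), Ctsa (-0.47) and Cln3 (-0.40). Of these 19 genes, 12 passed under every alternative setting tried: Hexa, Gla, Glb1, Psap, Ctsa, Ctsc, Ctsh, Man2b1, Lipa, Lamp2, Cd63 and Grn. The share of all genes that did so was not counted.

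For 12 genes and the score, in shControl, clone1 and clone2, no library lay apart from its group beyond the critical value of Dixon's test (0 of 39 tests, where chance marks about 1 in 20). The clone1 score came close to that value: replicate 2 lay at -0.301, the next library at -0.034 and the highest at 0.244.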

How the results depend on the processing

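With the run of neighbouring libraries as a random block in limma, 2 of the 36 genes passed in clone1, 10 in clone2, 3 in the libraries labelled shYAP and 1 between the controls, where the main counts were 8, 16, 6 and 2. The share of all genes that passed fell too, to 3.96%, 19.7%, 2.69% and 0.535%. Leaving out 1 Scrambled library at a time gave 3 to 5 in clone1, 12 to 14 in clone2 and 1 to 2 between the controls. Leaving out 1 shYAP library gave 3 each time. The share of all genes that passed then ran from 6.59% to 8.63% in clone1 and from 24.4% to 25.1% in clone2. It ran from 0.825% to 1.57% between the controls and from 3.56% to 4.46% in shYAP. With knockout replicates 1 to 6 alone, 13 passed in clone1 (18.4% of all genes did). With shControl replicates 8 to 10 alone, 11 passed in shYAP (21.9% of all genes did), and with replicates 5 to 10 alone 5 passed between the controls (3.26% of all genes did), where a fit of only those 2 groups gave 1 (1.7%). The score of clone2 was 0.11 with the median gene in place of the mean and 0.0425 without Cd63, a setting chosen after seeing the data. Of all genes, 20.9% passed in clone1 and 38.5% in clone2 with shControl in place of Scrambled. In that setting 8 of the 36 genes passed in clone1, 3 of them shared with the main result in the same direction. In clone2 20 passed, 13 of them shared. Values that had not passed against Scrambled passed there with the opposite sign: Ctsc in clone1 (-0.30, then 0.36), Lamp2 in clone1 (0.40, then -0.65) and Glb1 in clone2 (-0.04, then 0.38). The cause of these changes was not tested. Over all alternatives the adjusted p in clone1 ran from 7.39e-05 to 0.164 for Hexa, 0.00842 to 0.499 for Glb1, 0.00192 to 0.111 for Ctsa, 1.51e-04 to 0.385 for Ctsd, 1.00e-05 to 0.562 for Ctsz, 0.00172 to 0.192 for Lamp1 and 2.01e-05 to 0.0856 for Grn. In clone2 the highest was 0.0453 for Psap, 0.262 for Gm2a, 0.0937 for Tpp1, 0.00599 for Ctsd, 0.0037 for Ctsc, 0.00568 for Lamp2, 0.11 for Scarb2 and 9.60e-06 for Grn. DESeq2 size factors moved the split from 10 higher and 6 lower to 11 and 5 in clone2. The split in clone1 was 3 higher and 3 lower in 1 fit of all libraries (9.78% of all genes passed). That of clone2 against clone1 was 10 and 8 with replicates 7 to 9 alone (43.7% of all genes passed).

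The replicate numbers did not pair the libraries, with correlations of same-numbered libraries from -0.069 to 0.076 after removing group means. With the replicate number as a block, 6 genes passed in clone1, 12 in clone2, 20 between the clones, 6 in shYAP and 2 between the controls. The shares of all genes that passed were 11.7%, 25.7%, 48.2%, 15.6% and 3.79%.

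Depth limits the genes with few counts, such as Tfeb, Ids and Idua, for which changes smaller than their intervals were not detectable.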
